A study of Rattus norvegicus with 24 samples.

Results

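The insulin receptor gene Insr (ENSRNOG00000029986) was read out in the carotid body (CB), the small chemosensory organ at the carotid bifurcation, as 1 of 32623 genes in a table of raw RNA-seq counts. It was chosen because its level differs between the spontaneously hypertensive strain and its normotensive control, so the strain values given here describe a gene picked for that difference and carry no test. The series holds left and right CBs of 6 male Wistar-Kyoto rats (WKY/NHsd, WKY below) and 6 male spontaneously hypertensive rats (SHR/NHsd, SHR below), 12 to 14 weeks old, perfused with cold saline before dissection, which makes 24 poly-A RNA libraries. Each library comes from 1 CB of 1 rat, and left and right libraries of a rat share that rat. The counts per library summed to between 9198341 and 13655419.

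The insulin receptor is a tyrosine kinase of the cell surface that binds insulin and, with lower affinity, the insulin-like growth factors. Binding leads to phosphorylation of insulin receptor substrate proteins, which recruit phosphoinositide 3-kinase and so activate AKT, the kinase that sends glucose transporters to the membrane and restrains FOXO transcription factors. A second arm runs through SHC and GRB2 to the MAP kinases, and phosphatases and SOCS proteins end the signal. Glomus cells of the CB are known to respond to insulin.

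One library went against its label. In the library labelled right CB of SHR rat 34, thyroglobulin (Tg), the prohormone made by thyroid follicles, was at 7849 CPM (counts per 1000000 counts of the library), and the adipocyte fatty acid binding protein Fabp4 was at 385 CPM, whereas the glomus genes Agtr2, Sstr1 and Chgb were at 0.248, 0.371 and 3.84 CPM. The 7 glomus markers that could be named, of 13 listed, summed to 78.1 CPM there and to between 1749 and 2693 CPM in the other 11 SHR libraries. Its markers were thus not those of the labelled tissue, and whether it holds any CB was not tested. Comparisons therefore use 23 libraries without it, and values with all 24 libraries stand beside those it touches. The 7 glomus markers were present in all the other libraries, from 1219 CPM upward.

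Insr was present in every library, and its level was lower in SHR than in WKY CBs, on both sides and in each rat. CPM below are scaled by the trimmed mean of M values (TMM), edgeR's correction for library composition. In the 6 left WKY CBs Insr lay between 70.4 and 79.6 CPM with a median of 78.1, and in the 6 right WKY CBs between 67.7 and 86.3 CPM with a median of 74.0. In the 6 left SHR CBs it lay between 34.1 and 55.3 CPM with a median of 42.8, and in the 5 right SHR CBs between 41.8 and 52.4 CPM with a median of 42.9. The highest SHR library, the left CB of rat 36, thus stayed below the lowest WKY library, the right CB of rat 34, by a factor of 1.22, and the groups did not overlap. Over all 14253 genes tested, 154 (1.08%) had every SHR library below every WKY library, a share that belongs to the contrast by which Insr was chosen and from which nothing is read here.

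**Figure D1:**
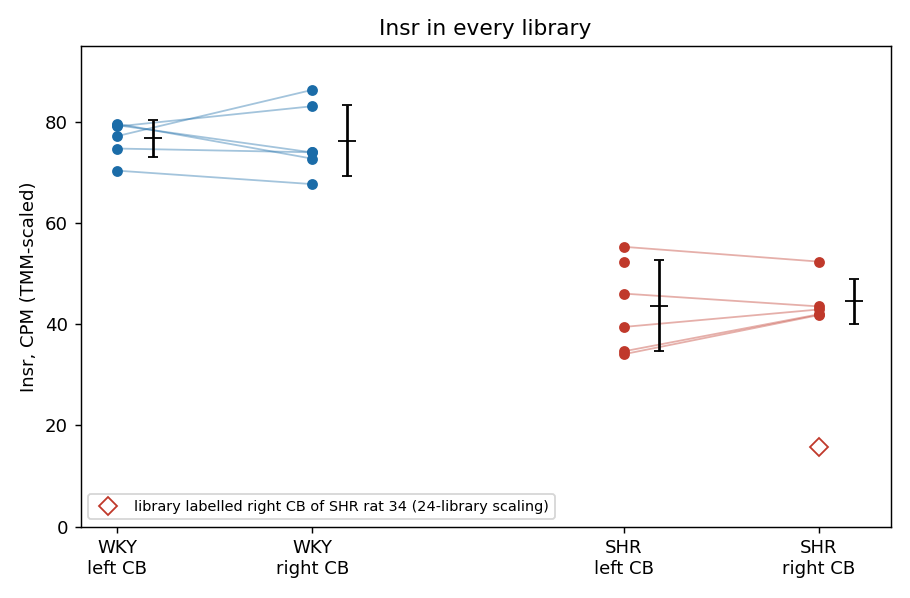
Insr level in CPM (TMM-scaled, axis from 0) in each library by strain and side, with lines joining the left and right CB of a rat and black bars for the mean and SD of 6 libraries (5 in the right SHR CBs). The WKY libraries lie between 67.7 and 86.3 CPM and the 11 SHR libraries between 34.1 and 55.3 CPM, and the open diamond, the library labelled right CB of SHR rat 34, is at 15.7 CPM and enters no mean.

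With the libraries of a rat averaged, the 6 WKY rats had 76.5 ± 4.68 CPM (SD, n = 6) and the 6 SHR rats 44.7 ± 6.93 CPM (SD, n = 6), a level 41.5% lower, or 1.71-fold. The WKY rats ran from 81.8 CPM in rat 33, 81.1 in rat 32, 76.6 in rat 36, 76.2 in rat 41 and 74.3 in rat 37 to 69.0 in rat 34. The SHR rats ran from 53.8 CPM in rat 36, 52.3 in the left CB of rat 34, 44.8 in rat 37 and 41.2 in rat 33 to 38.3 in rat 30 and 37.9 in rat 31. No SHR rat reached any WKY rat, and the lowest WKY rat had 1.28 times the level of the highest SHR rat. SHR rats 30 and 31 were closer to each other than the SD of their strain. Other neighbours in level, SHR rats 34 and 37 and WKY rats 37 and 34, were farther apart than the SD of theirs.

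The spread among rats was 6.11% of the mean in WKY and 15.5% in SHR. Counting error alone was 3.34 to 3.90% of the count in the WKY libraries, with 656 to 897 Insr reads each, and 4.17 to 5.56% in the 11 SHR libraries, with 324 to 575 reads. These errors are for single libraries, whereas the spread is over rat means, which average both CBs except in SHR rat 34. The percentages are thus not on the same scale. Whether the spread itself differs between strains was not tested. By edgeR's estimate, the variation of Insr beyond counting error had a coefficient of 0.113, a single value for both strains. The median over the genes tested was 0.131.

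In a fit with side and strain over the 23 libraries, the log2 fold change (LFC) of Insr, SHR minus WKY, was -0.80 ± 0.07 (SE). In the same fit 1402 of 14253 genes (9.84%) passed an adjusted p of 0.05 with lower levels in SHR (edgeR, quasi-likelihood, p adjusted after Benjamini and Hochberg), and 285 of those had a larger fall than Insr. In either direction 2861 genes (20.1%) passed, and 1482 of 14268 (10.4%) with all 24 libraries. These fits have no term for the rat, so left and right CBs of a rat enter as separate libraries. The same holds for each adjusted p between the strains below. With each rat as a block in limma 2299 genes passed, and with counts summed per rat 2039. The LFC of Insr was then -0.81 ± 0.07 and -0.77 ± 0.08 (SE). Insr stood within the range of genes lower in SHR and not at its edge. Of the 524 genes (3.68%) with every SHR rat below every WKY rat, 155 had a larger fall. The LFC was -0.82 in the left CBs alone and -0.79 in the right CBs alone, and with all 24 libraries it was -0.88.

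**Figure D2:**
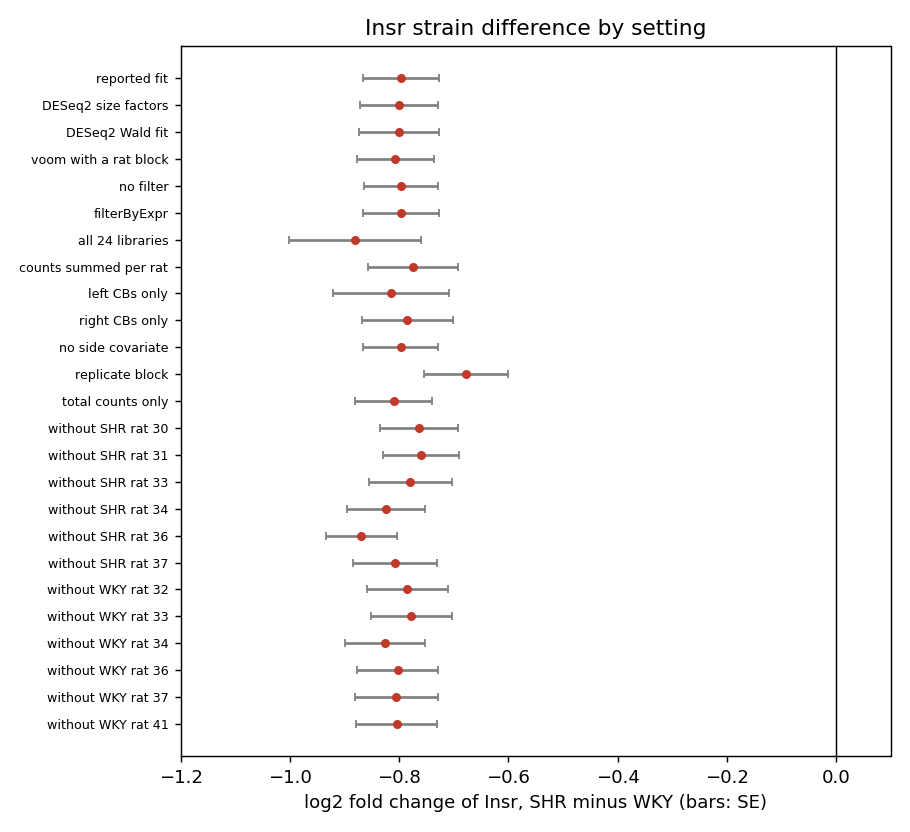
LFC of Insr between the strains (SHR minus WKY, x axis in log2 units, bars are SE) in the reported fit and in each other scaling, test, filter, set of libraries or fit without 1 rat. All values lie left of 0, from -0.88 with all 24 libraries to -0.68 with the rat number as a block. That block fit rests on the 4 numbers found in both strains.

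These are bulk samples, in which fewer cells of a type and less RNA per cell cannot be told apart. The marker genes that could be named come from a table of genes higher in SHR, so their direction is set by that choice. The 7 glomus markers summed to 1219 to 1872 CPM in the WKY libraries and 1749 to 2693 CPM in the SHR libraries, the 6 endothelial markers of 9 to 442 to 640 and 592 to 771 CPM, and the 6 macrophage markers of 6 to 390 to 679 and 553 to 852 CPM. The 3 neuronal markers of 6 summed to 206 to 314 CPM in WKY and 357 to 476 CPM in SHR. The 3 smooth muscle markers of 5 summed to 237 to 855 CPM in WKY and 383 to 1097 CPM in SHR. The 5 lymphocyte markers of 8 summed to 8.68 to 15.4 CPM in WKY and 11.9 to 26.0 CPM in SHR, the 3 skeletal muscle markers of 5 to 9.13 to 15.9 and 15.8 to 28.0 CPM, and the 3 adipocyte markers of 5 to 4.12 to 31.1 and 3.96 to 64.4 CPM. Tg, the 1 thyroid marker of 2, lay between 0.0959 and 10.7 CPM in WKY and between 0.455 and 215 CPM in SHR, highest in the right CB of rat 30, where Insr was at 42.0 CPM, and no glial or hepatocyte marker could be named. The part of any of these in the Insr difference was not tested.

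Side was not used to choose Insr, so the left and right CBs could be tested against each other. In WKY, Insr was 76.7 ± 3.62 CPM on the left and 76.3 ± 6.99 CPM on the right (SD, n = 6 each), and in SHR it was 43.6 ± 9.01 CPM on the left (n = 6) and 44.5 ± 4.45 CPM on the right (n = 5). In order of level these are the left WKY, right WKY, right SHR and left SHR CBs, and within a strain the sides differed by less than their SD. The LFC of left minus right was 0.0099 ± 0.065 (SE) in WKY, with an adjusted p of 0.9997 in edgeR, and -0.023 ± 0.124 in SHR, with an adjusted p of 0.987. The interaction of strain and side, which asks if the strain difference differs between the sides, was -0.036 ± 0.142, with an adjusted p of 0.999 in edgeR, where 438 of 14253 genes (3.07%) had an unadjusted p under 0.05. These side and interaction fits have no term for the rat, so the CBs of a rat enter as separate libraries. With each rat as a block, over rats with both sides, the LFC was 0.013 ± 0.057 in WKY and -0.099 ± 0.093 in SHR (SE). The interaction was then -0.12 ± 0.10 (SE). No side difference was detected at this spread, which does not show that the sides are equal.

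Rat by rat, the right CB was higher in SHR rats 30, 31 and 33, at 42.0, 41.8 and 42.9 CPM against 34.6, 34.1 and 39.5 CPM on the left. In SHR rats 36 and 37 the left CB was higher, at 55.3 and 46.1 CPM against 52.4 and 43.5 CPM. In WKY the left CB was higher in 4 rats of 6, and the right in rats 32 and 33. The mean left minus right difference in log2 CPM was -0.042 ± 0.152 (SD) over the 11 rats with both sides, 6 of them higher on the left, and a two-sided exact sign-flip permutation test gave p = 0.382. It was 0.012 in the 6 WKY rats (exact p = 0.844) and -0.106 in the 5 SHR rats (exact p = 0.313), and the smallest p that 5 rats allow is 0.0625. Adjusted over these 3 tests by Benjamini-Hochberg, the exact p were 0.573, 0.844 and 0.573. With the library labelled right CB of SHR rat 34 included, whose markers go against that label, the SHR mean was 0.193.

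The CBs of a rat were also compared for likeness. With strain and side means taken off, Pearson's r of left against right log2 CPM over the 11 rats was 0.691 (permutation p = 0.0170, 100000 resamples, two-sided) and Spearman's rho 0.709 (permutation p = 0.0193). The shuffling crossed the strains, whose SD of log2 rat means was 0.089 in WKY and 0.220 in SHR. The larger SHR deviations therefore weigh on these p. In the 6 WKY rats alone, a split made after seeing the data, r was 0.536 (exact permutation p = 0.244) and rho 0.029 (exact permutation p = 1), and without WKY rats 34 and 37, the 2 farthest from the median, r was -0.821. In the 5 SHR rats r was 0.896, and they stood in the same order on both sides. No p was computed for so few rats, and the r of -0.821 rests on fewer still. Adjusted by Benjamini-Hochberg over the 4 coefficients that have a permutation p, these p were 0.0386 for both over the 11 rats and 0.326 and 1 in WKY. The likeness was thus not shown in WKY alone. Over the 11 rats, without SHR rats 31 and 36, the 2 farthest from the median on the left, r was 0.394, so the relation rests on those rats. With the library labelled right CB of SHR rat 34 included, r was -0.274 over 12 rats.

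**Figure D3:**
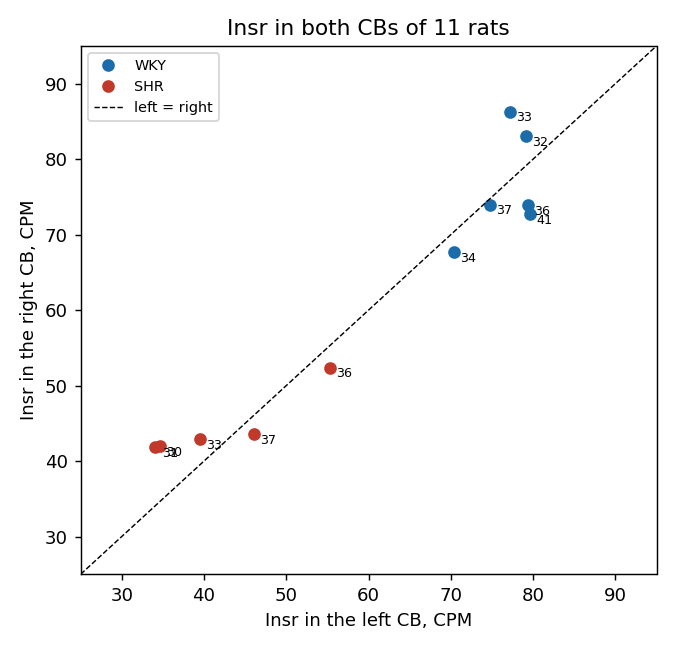
Insr in the right CB against the left CB (both axes in CPM) for the 11 rats with both libraries in use, each point numbered by its rat. The 6 WKY rats lie at 67.7 CPM or above on both axes and the 5 SHR rats at 55.3 CPM or below, and the points lie on both sides of the dashed line of equal values.

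The library labelled right CB of SHR rat 34 held 127 Insr reads (exact Poisson 95% interval 106 to 151, counting error only), or 15.7 CPM on a scaling over all 24 libraries. The left CB of the same rat was at 51.9 CPM on that scaling, 3.30-fold higher, and the mean of the other 11 SHR libraries was 43.5 CPM, 2.77-fold higher. The lowest of those 11 was 33.2 CPM. Insr was therefore below its level in every other library, but less reduced than the glomus markers. Its log2 ratio to the other SHR libraries was -1.46, against -10.24 for Agtr2, -9.03 for Sstr1, -7.48 for Chgb and -1.87 for Ret, the least reduced of the 7. Of 14268 genes tested, 12.6% had a lower ratio than Insr. Over all 37 paired markers, 20 were more reduced than Insr and 5 were higher than in the other SHR libraries. The 6 endothelial markers ran from -2.43 for Sox18 to -0.40 for Mmrn2, with 2 of them more reduced than Insr, and the 6 macrophage markers from -0.75 for Mrc1 to 0.61 for Cd163, with none more reduced. Of the 3 adipocyte markers, Fabp4 was at 4.49, Adipoq at 1.71 and Cfd at -1.23.

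**Figure D4:**
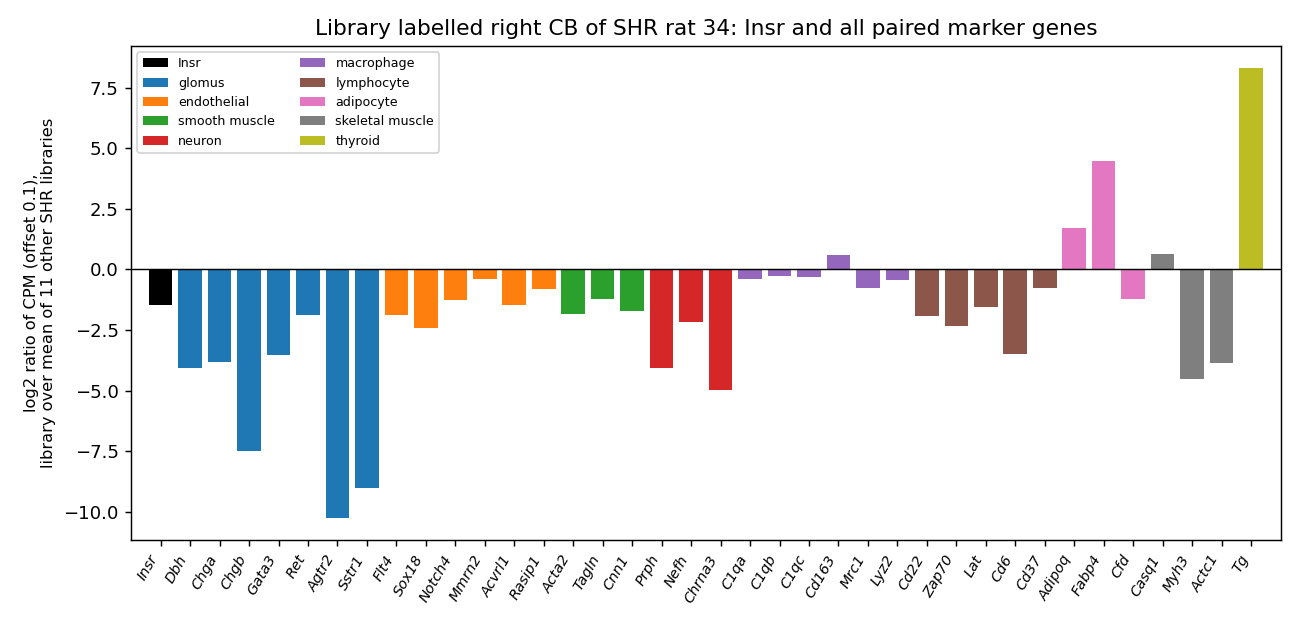
Log2 ratio of CPM (offset 0.1 CPM) in the library labelled right CB of SHR rat 34 over the mean of the 11 other SHR libraries, for Insr (black) and all 37 paired marker genes, coloured by cell type. Insr is at -1.46, all 7 glomus genes are lower, down to -10.24 for Agtr2, and Tg is highest at 8.30.

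Of the other genes on the insulin and insulin-like growth factor (IGF) lists, 20 of 108 could be paired with a row, all through a table of genes higher in SHR. Their direction is thus no evidence, and the related receptors Igf1r, Igf2r and Insrr, both insulin genes, Igf1, the insulin receptor substrates and the AKT kinases were not analysed here. All 20 were tested, and 11 were called higher in SHR in edgeR's fit over all genes, beside 10.2% of all genes tested, with a median LFC of 0.40 against 0.01 over all genes. With all 24 libraries 6 of the 20 were called, beside 5.35% of all genes. These shares and this median follow from the table the 20 were named from, as the direction does, and nothing is read from them. Between left and right, 0 of the 20 were called in either strain by edgeR, 0 at an unadjusted p of 0.05, where 284 of 14237 genes (1.99%) in WKY and 781 of 14190 (5.5%) in SHR had one.

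Among ligands, Igf2, a growth factor that also binds an isoform of the insulin receptor, had 87.6 ± 13.5 CPM in the WKY rats and 107 ± 14.1 CPM in the SHR rats (SD, n = 6), with an LFC of 0.30 ± 0.10 (SE) and an adjusted p of 0.0376 in edgeR. With all 24 libraries its adjusted p was 0.493. All 4 paired IGF binding proteins and proteases of 11 rose. Igfbp6, which binds IGF2 with preference, went from 77.4 to 124 CPM (LFC 0.68), and Pappa2, a protease that cuts IGF binding proteins, from 68.0 to 106 CPM (LFC 0.59). Igfbp3 and Igfbp4, carriers that hold IGFs away from their receptor, had LFCs of 0.39 and 0.39. With all 24 libraries only Igfbp6 of these 4 was still called.

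Downstream of the receptor, the adaptor Sh2b2, which binds the activated kinase, had 4.88 CPM in the WKY and 6.09 CPM in the SHR rats and did not pass (adjusted p = 0.0917 in edgeR). Of 2 paired members of the PI3K-AKT arm of 31, Sgk3, a kinase related to AKT, rose from 18.1 to 24.5 CPM (adjusted p = 0.141 in edgeR with all 24 libraries, so the call is lost), and Foxo6, a FOXO factor, had an LFC of 0.31 ± 0.22 (SE) that did not pass. Of 2 paired inhibitors of 11, Socs2, which ends cytokine and growth hormone receptor signals, rose from 59.6 ± 1.47 to 88.2 ± 7.07 CPM (SD, n = 6). Its WKY rats lay between 57.9 and 62.0 CPM and its SHR rats between 80.8 and 101 CPM, a direction set by the table it was named from. Errfi1, an inhibitor of ERBB receptors, ranged from 31.9 to 142 CPM among SHR rats and did not pass.

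Of 10 paired metabolic targets of 29, 4 rose. The glycolytic enzymes Pfkl and Hk2 went from 45.2 to 63.8 CPM and from 6.12 to 8.34 CPM, the lipase Lpl, which frees fatty acids from lipoproteins, from 43.6 to 56.6 CPM, and Pdk4, which restrains the entry of pyruvate into mitochondria, from 19.5 to 28.0 CPM. All 4 were also called with all 24 libraries. For Hk2, Lpl and Pdk4 the SHR rats overlapped the WKY rats. Those of Pdk4 ran from 17.0 to 42.1 CPM in SHR and from 17.4 to 20.9 CPM in WKY. The added library, labelled right CB of SHR rat 34, had 26.4 CPM of Hk2 and 44.9 of Pdk4. The other SHR libraries had 8.25 and 26.3 CPM on average. It thus raised their LFCs from 0.45 to 0.65 and from 0.44 to 0.53. Pfkl and Lpl were lower in it, at 43.7 against 63.6 CPM and 41.6 against 55.1 CPM. The largest LFC of the 10, 1.59 for the adipocyte hormone Adipoq, did not pass (adjusted p = 0.123 in edgeR) and stood on levels of 0.727 CPM in WKY and 1.77 CPM in SHR. The transcription factor Cebpb had an LFC of 0.48 and an adjusted p of 0.0511 in edgeR.

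**Figure D5:**
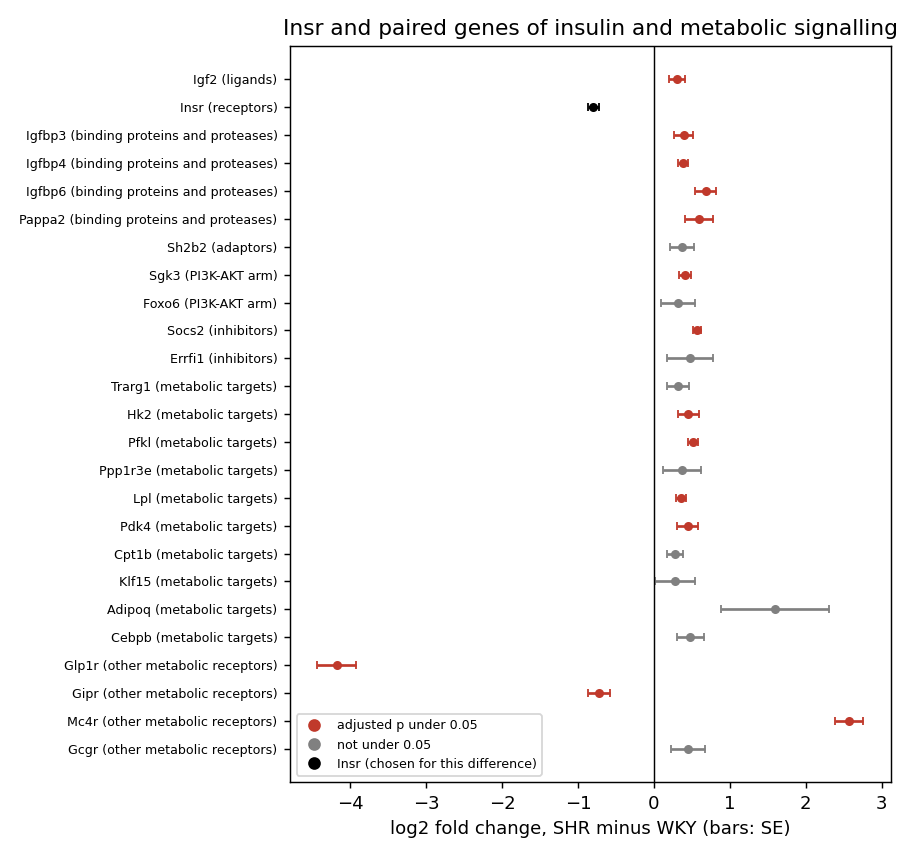
LFC between the strains (SHR minus WKY, x axis in log2 units, bars are SE) for Insr in black and for the genes of the insulin and metabolic receptor lists that could be paired with a row, in red where edgeR's adjusted p was under 0.05 and grey where it was not. Insr lies at -0.80 and the 20 other insulin and IGF genes between 0.28 and 1.59, a side that follows from the table they were named from, while Glp1r, at -4.17, and Mc4r lie farthest out on either side.

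Among other receptors of energy metabolism, 4 of 8 could be identified. Glp1r, the receptor of the incretin GLP-1, had 10.8 ± 1.17 CPM in the WKY rats and 0.607 ± 0.28 CPM in the SHR rats (SD, n = 6), with an LFC of -4.17. Gipr, the receptor of the incretin GIP, was at 14.3 ± 3.74 and 8.47 ± 1.61 CPM, with an LFC of -0.72 near that of Insr, but its WKY rats, from 9.05 CPM, overlapped its SHR rats, up to 11.03 CPM. With all 24 libraries the adjusted p of Gipr was 0.0520 in edgeR. Mc4r, a receptor of melanocortins, was at 2.51 and 15.6 CPM, and the glucagon receptor Gcgr, at 3.65 and 4.97 CPM, did not pass. In the library labelled right CB of SHR rat 34, Glp1r, Gipr and Mc4r had 0 reads, whereas Insr had 127. Their means in the other SHR libraries were 0.574, 8.53 and 14.9 CPM, against 43.5 CPM for Insr, so Glp1r was near the floor in SHR in any case. Glp1r, Gipr and Mc4r were, as Insr, chosen with their strain difference known.

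Of 51 other receptor tyrosine kinases on the list, 8 could be paired, through the same table of higher genes, and 5 rose, beside 10.2% of all genes tested. With all 24 libraries 4 were called, beside 5.35%, and Epha7 was not (adjusted p = 0.217 in edgeR). These shares follow from that table too, and nothing is read from them. Ret, the receptor of glial cell line-derived neurotrophic factors that glomus cells carry, was at 38.3 and 63.3 CPM (LFC 0.71), Flt3 had an LFC of 0.68 and Epha7 of 0.65, and Fgfr2 was at 16.3 and 21.5 CPM.

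The genes whose levels over the 12 rat means ran most like Insr were led by an identifier without a symbol, ENSRNOG00000011989 (Pearson's r = 0.983), followed by Glp1r (r = 0.974) and ENSRNOG00000023863 (r = 0.971). Gipr, at r = 0.715, was the 795th of 14252 genes. Since symbols could be had mostly for genes higher in SHR, the next symbols in order, Lypd6, Hlf and Ciart, had r of 0.117, 0.020 and -0.032 and were not like Insr. The most opposite were ENSRNOG00000060524 (r = -0.978), the chitinase-like protein Chi3l1 (r = -0.976), Nudt17 (r = -0.963), LOC103690108 (r = -0.957), Lrrc17 (r = -0.955) and LOC100360791 (r = -0.948). ENSRNOG00000016781 had r = -0.933. These r follow the strain difference, in that 97 genes had r above 0.9 and 65 below -0.9, and are a description with no test.

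With strain and side means taken off, over 23 libraries, no gene of 14252 reached 0.9 in either direction, and 64 lay above 0.7 and 72 below -0.7. The highest were ENSRNOG00000009001 (r = 0.875) and ENSRNOG00000027747 (r = 0.871), and among named genes Lrrc55 (r = 0.755), the sodium channel subunit Scn3b (r = 0.739), Glp1r (r = 0.704), the endocytic receptor Lrp2 (r = 0.680) and Apba2 (r = 0.649). In SHR, Glp1r was near the floor, with a mean of 0.607 CPM over the rats, which limits what its r can show. The most opposite were the matrix protein Dpt (r = -0.884), ENSRNOG00000024568 (r = -0.818) and ENSRNOG00000000991 (r = -0.810). Among genes with a symbol, Dpt was followed by the scavenger receptor Scara5 (r = -0.806), Cd99 (r = -0.774), Foxr1 (r = -0.753) and Chi3l1 (r = -0.717). The points share rats, in that left and right libraries of a rat enter as 2 points. The residual r of the glomus markers with Insr lay between 0.197 for Gata3 and 0.604 for Ret. Those of the adipocyte markers lay between -0.516 for Adipoq and -0.348 for Cfd. Lymphocyte markers ran from -0.539 for Cd22 to 0.072 for Lat, and smooth muscle markers from -0.35 for Acta2 to -0.254 for Cnn1. Endothelial markers ran from -0.031 for Sox18 to 0.458 for Flt4, and macrophage markers from -0.351 for Lyz2 to 0.080 for Mrc1. Neuronal markers ran from -0.101 for Nefh to 0.041 for Prph, and skeletal muscle markers from -0.339 for Casq1 to 0.356 for Myh3. Tg was at -0.273. The part of any of these in the spread of Insr within a strain was not tested.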

How the data were processed

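The authors deposited raw counts per Ensembl gene, 1 column per library. Per the labels, total RNA was poly-A selected and made into stranded libraries, and FastQC, STAR, featureCounts and DESeq2 were used; their versions, the genome build and the strand setting are not given in the sources used here, so no coordinates are printed and reads shared with antisense or overlapping genes could not be set apart. The RefSeq GRCr8 gene table pairs 0 rows with Ensembl identifiers. Symbols came from the readable part of the study's supplementary gene table (1273 identifiers, all higher in SHR). Insr, Glp1r and Gipr were each the 1 row that matched the values printed for them in a DESeq2 fit of the 23 libraries.

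Here edgeR 4.0.16 (TMM, robust quasi-likelihood, Benjamini-Hochberg) was fitted to genes with a mean normalized count above 10, with side and strain as terms for the strains and side alone within a strain; log2 CPM used a prior count of 2. DESeq2 1.42.0 and limma 3.58.1 were alternatives. Members and lists were chosen with earlier results of these data known. Genes were named by this rule: up to 4 per list by LFC, all where 4 or fewer were paired, and for likeness 5 symbols and 2 identifiers in each direction; Lpl and Pdk4 were named beyond it, after their values were seen. Left and right libraries of a rat are paired by the labels; their deviations over all genes correlated at -0.0336 to 0.258 (median 0.116). Pairs of libraries within a group differed beyond sampling noise (chi-square per degree of freedom 5.27 to 25.7 over 55 pairs), so none was counted as a duplicate. Intervals cover counting error only. The strain and interaction fits were also run on simulated counts with a single dispersion and no rat effect. This cannot test how shared rats affect them.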

Additional observations from a re-analysis of the deposited data

Results flagged for a closer look

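In the right SHR CBs, the library of rat 36 stood far from the other 4, at 52.4 CPM of Insr against 41.8 to 43.5 CPM, by Dixon's test at the 95% level. The left CB of the same rat, at 55.3 CPM, was the highest of the left SHR CBs. With the library labelled right CB of rat 34 added to that group, that library stood apart instead, at 15.7 CPM. Chance marks about 1 in 20 groups, and 12 were examined, which overlap. No explanation was tested for either.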

How the results depend on the processing

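The LFC of Insr between the strains moved by less than 0.168, the SD of log2 rat means pooled over both strains, in all 24 alternatives. It ran from -0.88 with all 24 libraries to -0.68 with a replicate block, and from -0.87 to -0.76 when 1 rat was left out. The move with the replicate block is larger than the SD of 0.089 among WKY rats alone. That block is the rat number, and only 33, 34, 36 and 37 occur in both strains, on different rats. Its LFC thus rests on the rats with those numbers, and SHR rats 30 and 31 and WKY rats 32 and 41 do not inform it. Same-numbered rats of different strains did not deviate together (correlations -0.202 to 0.0492 over 4 numbers), so that block pairs nothing. The count of genes called between the strains, 2861, moved to 1482 with all 24 libraries, 1270 in left CBs only, 838 in right CBs only and 1730 with the replicate block, and lay between 2193 and 2831 when 1 rat was left out.

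No left minus right value or interaction passed the threshold in any alternative, but small values changed sign. With all 24 libraries, the difference was 0.13 in SHR, the interaction 0.12, the mean per rat 0.10 (exact sign-flip p = 0.813) and the r of left and right -0.27 (permutation p = 0.378). That r was 0.54 in WKY rats only (exact permutation p = 0.244), a split added after seeing the data. When 1 rat was left out, the WKY difference lay between -0.016 and 0.047 (below 0 without rat 36, at -0.012, or rat 41, at -0.016), the SHR difference between -0.082 and 0.014 (above 0 without rat 30, at 0.014, or rat 31, at 0.013) and the interaction between -0.097 and 0.0037 (above 0 without SHR rat 30, at 0.0037, or rat 31, at 0.0030). Pairing the CBs of a rat by a replicate block gave 0.013 in WKY, -0.099 in SHR and -0.12 for the interaction, and changed no call. Of the 14 genes named as most like Insr over rats, 6 were named with Spearman's rho and 4 with all 24 libraries, and of the 14 within strain and side, 7 and 4. Scaling by total counts only, added after seeing the data, gave -0.81 for the strains.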
